A study of Saccharomyces cerevisiae with 16 samples.

Results

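The second phase of the response to induction of ROF1 (YHR177W) in budding yeast was set against the first: the 4 arrays of 20 and 30 min after the inducer against the 4 arrays of 5 and 10 min, each time from cultures A and B. Values of both times of a group are given in order of time, with the letter of the culture in brackets. These are 8 of the 16 arrays of the series, chosen by their labelled time alone, and all 8 come after the inducer was added, so the arrays of 0 min took no part in this comparison. In both groups the strain is the Z3pr-ROF1 strain of the S288C background, in which the Z3 promoter stands in place of the ROF1 promoter and is marked by URA3, and in which the β-estradiol-dependent activator Z3EV is made from the ACT1 promoter. Both cultures grew at steady state in phosphate-limited chemostats and received β-estradiol at 1 µM. Each array carried RNA of a sample in Cy5 and RNA of the strain DBY12001, also S288C, in Cy3, so every level below is a log2 ratio of the sample to that strain, and every change is the mean of 20 and 30 min minus the mean of 5 and 10 min on that log2 scale.

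Rof1 is a putative transcription factor with a WOPR domain, a fungus-specific DNA-binding fold that is also found in its paralog Mit1 and in Wor1, the regulator of white-opaque switching in Candida albicans. Yeast cells that meet a sudden disturbance commonly raise stress and reserve carbohydrate genes and lower ribosome synthesis genes for a short while, and then return towards their earlier state. A contrast between a later and an earlier time after an inducer can therefore hold both a return from such a passing response and a slower change that goes on.

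The 8 arrays had a median red signal between 931 (10 min, culture B) and 1417 (10 min, culture A), with 90.5% and 97.4% of their spots well above background in that colour. The 10 min array of culture B was the dimmest of the 16. All arrays of a culture shared 1 slide, and on both slides the arrays of 0, 5, 10 and 15 min lay in one column and those of 20, 30, 45 and 90 min in the other, so slide column and phase cannot be told apart. No culture without the ROF1 construct and none without the inducer was followed, so an effect of the inducer itself cannot be told apart from one of ROF1. The arrays of a culture are serial samples of 1 vessel. The test, limma with the culture as a block, therefore measures the spread among these arrays, with the difference between the times inside each group counted as spread.

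ROF1 itself, which checks the labels, was high in both groups. It stood at 4.24 and 4.50 (A) and 4.09 and 4.23 (B) at 20 and 30 min, against 3.49 and 4.21 (A) and 3.36 and 4.17 (B) at 5 and 10 min. The 5 min arrays were the lowest, and the groups overlapped. The change was 0.45 ± 0.23 (SE, adjusted p 0.214), so the late and early arrays were not told apart in ROF1. At 0 min ROF1 stood at 0.00 in both cultures, where both colours lay under the floor of 50 intensity units that the authors set. URA3, the marker next to the promoter, gave the same picture. It stood at 4.11 and 3.98 (A) and 3.99 and 4.04 (B) at 20 and 30 min, against 3.61 and 4.03 (A) and 3.44 and 4.13 (B) at 5 and 10 min. The change was 0.23 ± 0.17 (SE, adjusted p 0.385), and the groups overlapped. Both genes were thus far above the reference strain by 5 min and higher still at 10 min. How much of the rise of ROF1 came before 5 min was not measured, as its 0 min value lies at the floor. The changes that follow fell in a time when ROF1 was already high.

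Of 6076 genes tested, 15 were lower by at least 2-fold at 20 and 30 min at an adjusted p under 0.05 (Benjamini-Hochberg over all genes tested), or 0.247%, and 0 were higher (0.0%). At an unadjusted p under 0.05 the same size limit also gave 15 lower and 0 higher genes. Without a limit on size, 677 genes were lower (11.1%) and 689 higher (11.3%), so smaller changes were about as common in both directions. These shares, set beside the gene lists below, include 434 genes with red at the floor on more than 6 of the 8 arrays. They are therefore a low measure for lists of brighter genes. With the genes above the floor only, 795 of 5601 were lower and 811 higher. The 4 late arrays all lay below the 4 early arrays in 865 genes (14.2%) and all above in 917 (15.1%). With a limit of 1.5-fold, 47 genes were lower and 7 higher. All 677 and all 689 genes had the same sign in both cultures, which the call on these arrays favours. Over all genes tested, 4798 of 6076 had the same sign. Across all 6076 genes the changes in cultures A and B were correlated at r = 0.84, a description over genes that share arrays and slides. The counts without a size limit depended on single arrays. Leaving out the 5 min array of culture A gave 255 lower and 300 higher genes, the 10 min array of A 319 and 330, the 30 min array of A 357 and 366, the 5 min array of B 421 and 474, and the 30 min array of B 437 and 436. With 1 culture alone 0 genes passed in either direction, at 2 residual degrees of freedom.

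**Figure D1:**
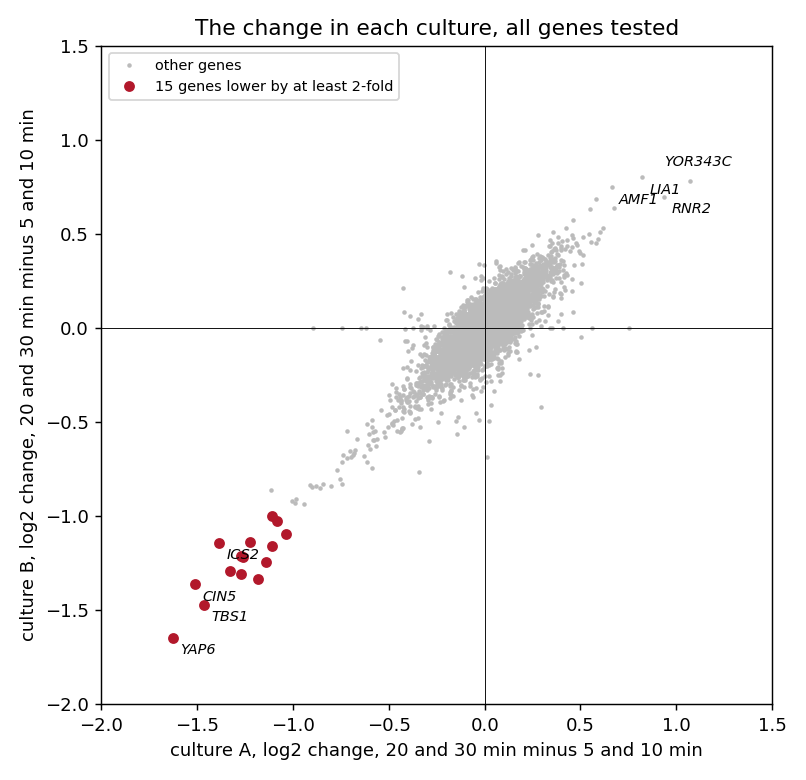
Change on the log2 scale (20 and 30 min minus 5 and 10 min) of each of the 6076 genes tested in culture A (x axis) and culture B (y axis). The 15 genes lower by at least 2-fold (red) sit together at the lower left, with YAP6 at -1.63 in A and -1.65 in B, and no gene reaches as far to the upper right.

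The 15 genes lower by at least 2-fold were YAP6, TBS1, CIN5, RSB1, RRT6, ICS2, MIT1, SFG1, MAL11, HXT4, BDH2, HXT2, GAT2, MAL31 and YER053C-A. In all 15 the late arrays lay below the early arrays without overlap. The nearest late and early arrays of a gene were between 0.53 and 1.04 apart on the log2 scale. The call itself favours such a gap: of all 677 lower genes, 645 had late and early arrays without overlap. The changes in the cultures differed by at most 0.24. The last gene inside the 2-fold limit was YER053C-A at -1.05, and the first outside it was YJL218W at -0.99. Movement inside each group went the same way. All 15 were lower at 30 than at 20 min, with differences of -0.76 to -0.29. All 15 were also lower at 10 than at 5 min, with differences of -0.56 to -0.11. The share of all genes tested with a negative sign in these differences was not counted. Over all genes limma called 0 genes for 30 min against 20 min and 0 for 10 min against 5 min (0.0% each), with 495 lower and 416 higher genes at an unadjusted p under 0.05 for 30 against 20 min, and 441 lower and 330 higher for 10 against 5 min.

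Genes for transcription factors and regulators made up 6 of the 15, and the share of such genes among all genes tested was not counted. YAP6, which encodes a bZIP factor known to bind the Cyc8-Tup1 corepressor, stood at -1.71 and -2.08 (A) and -1.86 and -2.39 (B) at 20 and 30 min, against -0.09 and -0.45 (A) and -0.29 and -0.66 (B) at 5 and 10 min. The change was -1.64 ± 0.17 (SE, adjusted p 0.00885), the largest fall of all genes tested. CIN5, its close relative, stood at -0.33 and -0.80 (A) and -0.28 and -0.72 (B) at 20 and 30 min, against 1.21 and 0.68 (A) and 1.12 and 0.61 (B) at 5 and 10 min. The level was above that of the reference strain on every early array and below it on every late one, and the change was -1.44 ± 0.21 (SE, adjusted p 0.0123). TBS1, which encodes a zinc cluster protein, stood at -1.04 and -1.77 (A) and -1.10 and -1.88 (B) at 20 and 30 min, against 0.11 and 0.01 (A) and 0.11 and -0.15 (B) at 5 and 10 min. It was near the reference strain on all 4 early arrays and below it on all 4 late ones, and lower at 30 than at 20 min in both cultures, with a change of -1.47 ± 0.23 (SE, adjusted p 0.0137).

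MIT1, the paralog of ROF1 and a regulator of pseudohyphal growth, stood at -0.94 and -1.53 (A) and -0.98 and -1.63 (B) at 20 and 30 min, against 0.01 and -0.13 (A) and 0.08 and -0.01 (B) at 5 and 10 min. All 4 early arrays lay near the reference strain and far above the late ones, and the change was -1.26 ± 0.19 (SE, adjusted p 0.0134). SFG1, which encodes a regulator of superficial pseudohyphal growth, stood at -0.73 and -1.14 (A) and -0.67 and -1.19 (B) at 20 and 30 min, against 0.41 and 0.27 (A) and 0.39 and 0.18 (B) at 5 and 10 min. The sample was above the reference strain on every early array and below it on every late one, and the change was -1.24 ± 0.15 (SE, adjusted p 0.00918). GAT2, a GATA-type zinc finger gene, stood at -0.99 and -1.32 (A) and -1.04 and -1.53 (B) at 20 and 30 min, against 0.01 and -0.25 (A) and -0.02 and -0.36 (B) at 5 and 10 min. The groups did not overlap, and the change was -1.06 ± 0.15 (SE, adjusted p 0.0123).

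YAP6, TBS1, CIN5, MIT1 and GAT2 are among the 11 transcription factor genes that the study names as repressed. That list was chosen on these same arrays, so its direction is no independent evidence for these genes. Late arrays lay below early arrays without overlap in all 11, as in 14.2% of all genes tested. At an adjusted p under 0.05, 10 were lower, against 11.1% of all genes tested. The median change was -0.66 against 0.00 over all genes tested. With the red channel alone 7 passed. The other members changed less: PHD1, a regulator of pseudohyphal growth, by -0.66 ± 0.10 (adjusted p 0.0129), ACA1, a bZIP factor, by -0.42 ± 0.08 (adjusted p 0.017), GCN4, the activator of amino acid synthesis genes, by -0.35 ± 0.05 (adjusted p 0.0118), CUP9, a repressor of the peptide transporter gene PTR2, by -0.35 ± 0.02 (adjusted p 0.00682), and MOT3, a zinc finger repressor, by -0.21 ± 0.03 (adjusted p 0.013). NRG1, a repressor of glucose-repressed genes, did not pass (-0.24, adjusted p 0.0522). The difference in size between these genes was not tested.

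Sugar transport gave 4 more of the 15 genes, and the share of such genes among all genes tested was likewise not counted. HXT4 and HXT2 encode high-affinity glucose transporters, and MAL11 and MAL31 encode α-glucoside and maltose permeases. HXT4 stood at -0.54 and -1.23 (A) and -0.46 and -1.22 (B) at 20 and 30 min, against 0.38 and 0.13 (A) and 0.56 and 0.25 (B) at 5 and 10 min. It was above the reference strain at 5 and 10 min in both cultures and below it at 20 and 30 min, with a change of -1.19 ± 0.23 (SE, adjusted p 0.0203). HXT2 stood at -1.25 and -1.74 (A) and -1.40 and -1.90 (B) at 20 and 30 min, against -0.15 and -0.62 (A) and -0.27 and -0.71 (B) at 5 and 10 min, and the change was -1.14 ± 0.20 (SE, adjusted p 0.0168). MAL11 stood at -0.87 and -1.22 (A) and -0.96 and -1.23 (B) at 20 and 30 min, against 0.47 and -0.04 (A) and 0.42 and -0.17 (B) at 5 and 10 min. Its 5 min arrays were the highest and its 30 min arrays the lowest in both cultures, and the change was -1.24 ± 0.19 (SE, adjusted p 0.0136). MAL31 ran beside it, between -1.15 and -0.83 on the late arrays against -0.30 and 0.32 on the early ones, with a change of -1.06 ± 0.17 (SE, adjusted p 0.0145). Maltose permease genes resemble each other in sequence, and a probe may report more than 1 of them. When the array of 5 min from culture A was left out, HXT4 and HXT2 did not pass (adjusted p 0.0658 and 0.054). HXT4 also missed the threshold when the array left out was that of 10 min from A (0.0525), of 30 min from A (0.0531) or of 5 min from B (0.0533). MAL31 passed in each case, with a smallest change of -0.94.

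Of the remaining 5 genes, RSB1 encodes a transporter that moves sphingoid long-chain bases out of the cell, and BDH2 a putative alcohol dehydrogenase. RSB1 stood at -1.08 and -1.49 (A) and -1.17 and -1.37 (B) at 20 and 30 min, against 0.25 and -0.17 (A) and 0.27 and -0.23 (B) at 5 and 10 min. It fell below the reference strain by more than 2-fold on every late array, and the change was -1.31 ± 0.16 (SE, adjusted p 0.00987). BDH2 stood at -0.14 and -0.66 (A) and 0.14 and -0.60 (B) at 20 and 30 min, against 0.95 and 0.71 (A) and 1.03 and 0.78 (B) at 5 and 10 min. The early arrays were all above 0.70, and of the late ones only the 20 min array of culture B stayed above 0, so the groups were well apart, with a change of -1.18 ± 0.20 (SE, adjusted p 0.016). The genes RRT6, ICS2 and YER053C-A have no role stated here. RRT6 ranged from -1.78 to -1.08 late against -0.20 to -0.01 early, ICS2 from -1.40 to -0.84 against -0.27 to 0.41, and YER053C-A from -0.72 to -0.24 against 0.39 to 0.78. The changes were -1.29, -1.26 and -1.05 in that order, with adjusted p of 0.0137, 0.0139 and 0.0137. For RSB1, RRT6 and ICS2 the size depended on the floor: with a floor of 200 in place of 50 it was -0.22, -0.42 and -0.83, and that of RSB1 did not pass (adjusted p 0.236). BDH2 did not pass when the array of 5 min from culture A was left out (adjusted p 0.0548).

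**Figure D2:**
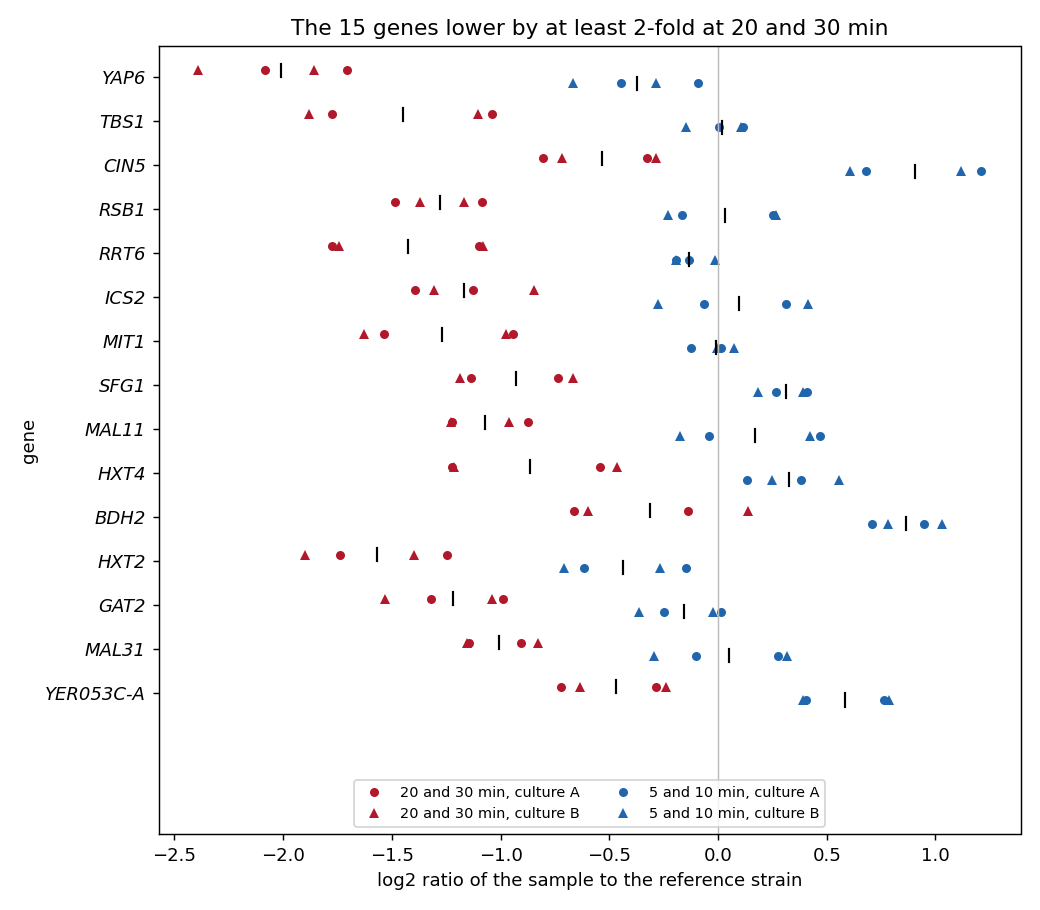
Log2 ratio to the reference strain (x axis) of the 15 genes lower by at least 2-fold (rows, largest fall on top) on each array of 20 and 30 min (red) and of 5 and 10 min (blue), circles for culture A and triangles for culture B; black bars are means of 4 arrays. In every row the red points lie left of the blue points with no overlap, most widely for YAP6 and least for MAL31.

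The early arrays were not a common baseline for these 15 genes. Set against the level at 0 min, the mean of 5 and 10 min was higher in 11 of the 15 and lower in 4. The range was -0.30 for SFG1 to 0.59 for BDH2. The 0 min arrays took no part in the comparison. The 15 were chosen for early values above late ones, which favours a high early mean, and the share over all genes was not counted. CIN5 stood at 0.29 and 0.41 at 0 min in cultures A and B, so that its early mean differed from 0 min by 0.56 and its late mean by -0.88. HXT4 stood at -0.21 and -0.10 at 0 min, and differed from it by 0.48 in the early mean and -0.71 in the late mean. TBS1, at 0.07 and 0.05, had an early mean that differed by -0.04. The early means of BDH2, RSB1, CIN5, YER053C-A and HXT4 lay between 0.48 and 0.59 above 0 min, those of MAL31, MAL11, HXT2 and RRT6 between 0.08 and 0.23 above it, and those of MIT1 and GAT2 at 0.01, while YAP6, TBS1, ICS2 and SFG1 were below 0 min.

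The arrays of 0, 45 and 90 min, which share no array with the comparison, show where the genes lay afterwards. They come from the same cultures and slides. The 0 min arrays lie in the slide column of the early arrays, and those of 45 and 90 min in that of the late ones. Slide column and time therefore cannot be told apart here either. In the mean of 45 and 90 min against 0 min, 995 of all genes tested were lower (16.4%) and 1110 higher (18.3%) past the same threshold. Of the 15 genes 14 were lower there, each by at least 2-fold, and the median over the 15 was -2.03 against 0.00 over all genes. The exception was ICS2 at -1.72 (adjusted p 0.0801), which stood at -0.53 in culture A and -1.91 in culture B at 90 min. TBS1 was at -2.88 (adjusted p 0.000638), SFG1 at -2.62 (0.00185) and MIT1 at -2.28 (0.00205). Of all 677 genes lower at 20 and 30 min, 266 (39.3%) later lay below 0 min and 44 (6.50%) above it, with a median of -0.09. Of the 689 genes that were higher, 192 (27.9%) later lay above 0 min and 114 (16.5%) below, with a median of 0.03. The larger part of both sets, 367 and 383 genes, did not pass that test.

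**Figure D3:**
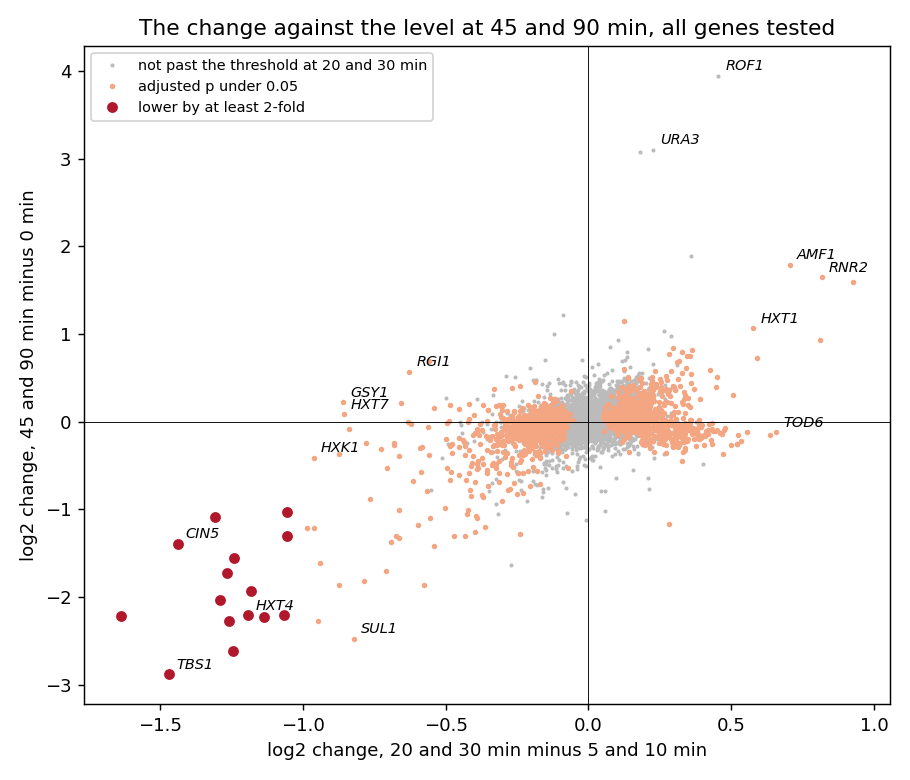
Change between the phases (x axis, 20 and 30 min minus 5 and 10 min) and level at 45 and 90 min minus 0 min (y axis), both on the log2 scale, for all genes tested. The axes share no array, but both set the same slide columns against each other. The 15 genes lower by at least 2-fold (dark red) all lie between -2.88 and -1.03 on the y axis. HXT7 and GSY1, with changes of -0.86 each, lie at 0.09 and 0.22 on it. TOD6, higher by 0.66, lies at -0.12.

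Reserve carbohydrate genes fell towards their level of 0 min. Of 18 genes of trehalose and glycogen metabolism 11 were lower, 0 higher and 7 did not pass, with a median of -0.35; of all genes tested 11.1% were lower and 11.3% higher. HXK1, a hexokinase gene, stood at 0.13 and -0.14 (A) and 0.40 and -0.22 (B) at 20 and 30 min, against 0.97 and 1.03 (A) and 1.01 and 1.01 (B) at 5 and 10 min. GSY1, a glycogen synthase gene, stood at 0.18 and -0.03 (A) and 0.26 and -0.11 (B) at 20 and 30 min, against 1.13 and 0.79 (A) and 1.11 and 0.71 (B) at 5 and 10 min. GLC3, the glycogen branching enzyme gene, stood at 0.11 and -0.10 (A) and 0.08 and -0.16 (B) at 20 and 30 min, against 0.74 and 0.78 (A) and 0.76 and 0.77 (B) at 5 and 10 min. In all 3 genes the early arrays lay above the reference strain by at least 0.71 and the late arrays close to it, and the groups did not overlap. The changes were -0.96 ± 0.14 (adjusted p 0.0129) for HXK1, -0.86 ± 0.14 (adjusted p 0.0144) for GSY1 and -0.78 ± 0.07 (adjusted p 0.00692) for GLC3, and PGM2, phosphoglucomutase, changed by -0.68 ± 0.18 (adjusted p 0.0442). At 0 min HXK1 stood at -0.20 and -0.08, GSY1 at -0.33 and -0.20 and GLC3 at -0.09 and -0.06, so the late levels were nearer to 0 min than the early ones. In the mean of 45 and 90 min against 0 min, GSY1 was at 0.22 (adjusted p 0.00531), GLC3 at -0.24 (0.00651) and HXK1 at -0.41 (0.00827). At 90 min HXK1 stood at -0.96 in culture A and -0.76 in culture B. Over the list the median was 0.08, but the members split there, with 4 lower and 7 higher. Of all genes tested 16.4% were lower and 18.3% higher there. Leaving out single arrays gave 3 in place of 11 for the 10 or the 30 min array of culture A, 5 for the 5 min array of A, 6 for the 5 or the 10 min array of B, and 7 for the 20 min array of A or the 30 min array of B. The median over the list stayed between -0.40 and -0.29 with any 1 array left out, and with the red channel alone 5 genes were lower.

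HXT6 and HXT7, near-identical high-affinity glucose transporter genes whose probes cannot be relied on to tell them apart, moved with this group. HXT7 stood at 0.09 and -0.14 (A) and 0.13 and -0.03 (B) at 20 and 30 min, against 0.98 and 0.69 (A) and 1.05 and 0.76 (B) at 5 and 10 min. Early arrays were at least 0.69 above the reference strain and late arrays between -0.14 and 0.13, and the change was -0.86 ± 0.10 (SE, adjusted p 0.0093). In the mean of 45 and 90 min against 0 min it was at 0.09 (adjusted p 0.201), against -2.21 for HXT4 and -2.23 for HXT2. HXT1, the low-affinity glucose transporter gene, went the other way. It stood at -0.03 and 0.51 (A) and 0.05 and 0.30 (B) at 20 and 30 min, against -0.25 and -0.52 (A) and -0.26 and -0.45 (B) at 5 and 10 min, with a change of 0.58 ± 0.14 (SE, adjusted p 0.0396) and a level of 1.07 in the mean of 45 and 90 min against 0 min. Of 18 measured hexose transporter and sensor genes, from a list of 22, 5 were lower and 2 higher, with a median of -0.15. With 5 min from culture A left out it was 3 lower and 1 higher. Of all genes tested 11.1% were lower and 11.3% higher.

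Of 28 general stress genes, 11 were lower, 1 higher and 16 did not pass, with a median of -0.14, where 11.1% of all genes tested were lower. RTN2, a reticulon gene, changed by -0.70 ± 0.13 (adjusted p 0.0203), SOL4, a 6-phosphogluconolactonase gene, by -0.63 ± 0.08 (adjusted p 0.0107), RGI1, a gene induced in respiratory growth, by -0.63 ± 0.14 (adjusted p 0.0285), and SDP1, a phosphatase gene for the MAP kinase Slt2, by -0.59 ± 0.11 (adjusted p 0.0202). The median level of the list on the late arrays was 0.39 and 0.21 in culture A and 0.49 and 0.21 in culture B at 20 and 30 min, against 0.54 and 0.64 in A and 0.59 and 0.65 in B at 5 and 10 min. It was 0.02 and 0.11 at 0 min, so the list was still above that level at 30 min. Without the 5 min or the 30 min array of culture A, 6 members were lower, and with the red channel alone 7. Of 24 chaperone genes 7 were lower and 0 higher, with a median of -0.10; HSP42, HSP104, HSP78 and CUR1 were at -0.37, -0.31, -0.27 and -0.24. Between 2 (10 min from culture A left out) and 9 (20 min from B left out) chaperone genes were lower with any 1 array left out, and 0 with the red channel alone. Of 47 genes of the citrate cycle and respiration, 42 were negative, but 4 passed, all lower, with a median of -0.09. Of all genes tested 11.1% were lower. This comparison depended on the processing. With a floor of 200, 2 of the 47 were lower, against 552 of 6076 of all genes. With normexp and loess 13 were lower, against 800 of 6076. With the genes above the floor only 13 were lower, against 795 of 5601. With time as a factor over 16 arrays 22 were lower, against 1074 of 6076. None of the 47 passed in either direction when the array of 5 or of 10 min from culture A was left out, or with the red channel alone.

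**Figure D4:**
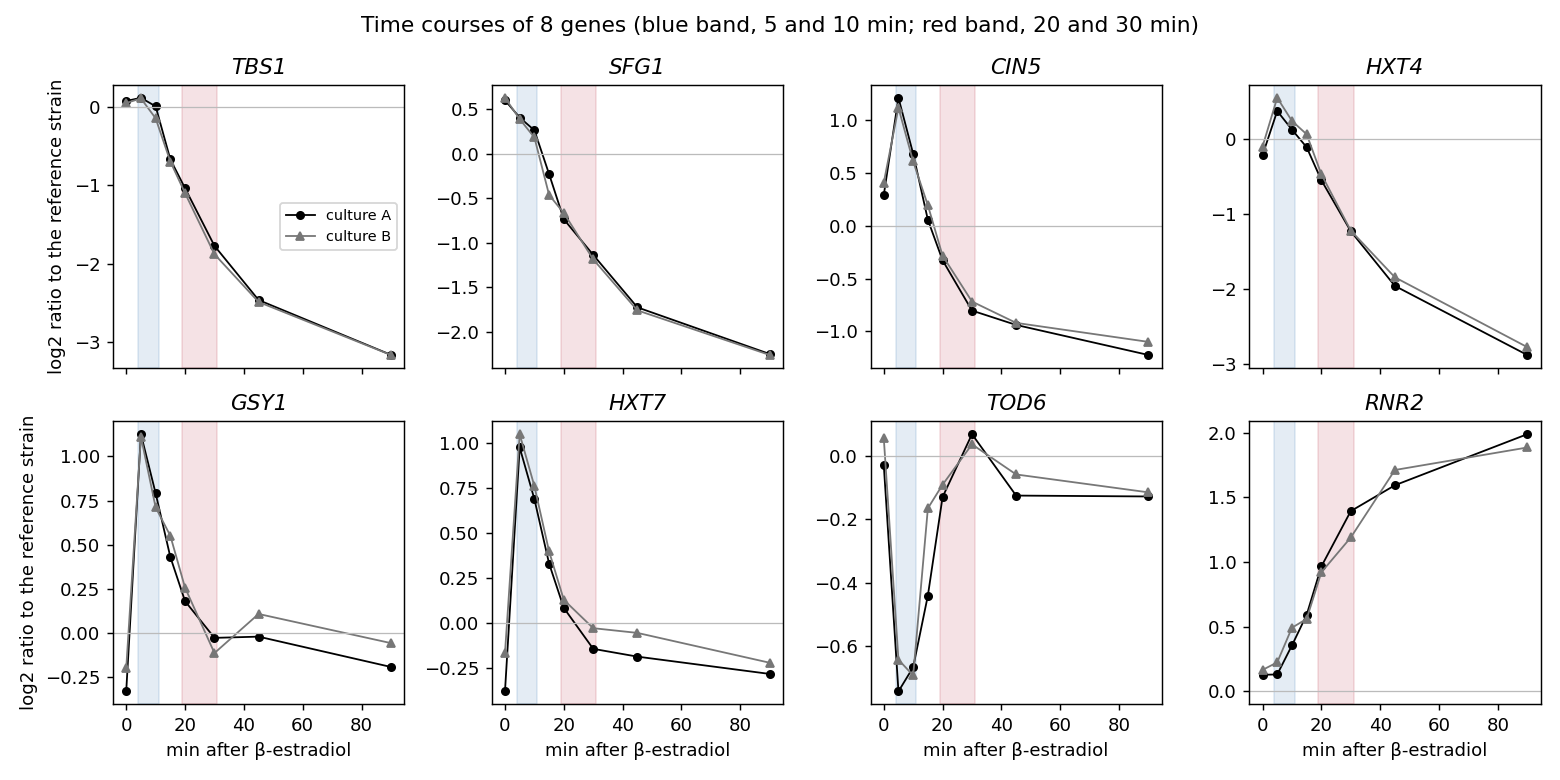
Log2 ratio to the reference strain (y axis, scale differs between panels) over 0, 5, 10, 15, 20, 30, 45 and 90 min (x axis) of 8 genes in culture A (black circles) and culture B (grey triangles), with 5 and 10 min shaded blue and 20 and 30 min shaded red. TBS1 and SFG1 go on falling to 90 min, CIN5 and HXT4 peak at 5 min and end below 0 min, GSY1 and HXT7 come back towards 0 min, TOD6 dips at 5 and 10 min, and RNR2 goes on rising to 1.99 and 1.89 at 90 min.

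Ribosome synthesis genes were higher on the late arrays. Of 72 ribosome biogenesis genes 48 were higher, 0 lower and 24 did not pass, where 11.3% of all genes tested were higher. All 72 had a positive change, against 3038 of all 6076 genes tested, of which 2693 were negative. The median was 0.28 against 0.00 over all genes tested. DBP2, an RNA helicase gene, stood at -0.26 and 0.12 (A) and -0.19 and 0.04 (B) at 20 and 30 min, against -0.44 and -0.79 (A) and -0.43 and -0.72 (B) at 5 and 10 min. Early arrays were all well below the reference strain, and the 30 min arrays just above it. The change was 0.52 ± 0.13 (adjusted p 0.0402), against 0.45 ± 0.07 (adjusted p 0.0136) for LTV1, 0.43 ± 0.07 (adjusted p 0.0152) for UTP13 and 0.43 ± 0.09 (adjusted p 0.0234) for NSR1, which act in the assembly of the small subunit. The median level of the list was -0.05 and 0.12 in culture A and -0.02 and 0.09 in culture B at 20 and 30 min, against -0.16 and -0.31 in A and -0.16 and -0.28 in B at 5 and 10 min. At 0 min it was 0.15 and 0.16, so the list came close to that level at 30 min; in the mean of 45 and 90 min against 0 min the median change of its members was -0.15, with 37 lower and 0 higher.

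Of 26 genes of RNA polymerases I and III, 16 were higher and 0 lower, with a median of 0.19; RRN11, a subunit of the polymerase I core factor, was at 0.48, and the polymerase I subunit genes RPA43, RPA34 and RPA12 were at 0.33, 0.31 and 0.29. Of 137 cytosolic ribosomal protein genes 13 were higher and 2 lower, with a median of 0.05, and RPL7B had the largest change at 0.39 ± 0.07 (adjusted p 0.0204). The shares of these lists that were higher read against 11.3% of all genes tested. The count of 48 biogenesis genes depended on single arrays. Leaving out the 10, the 30 or the 5 min array of culture A gave 24, 26 or 27, and leaving out the 10 or the 30 min array of B gave 30 or 31, with 0 lower in each. With the red channel alone it was 11, with a median of 0.27. For the polymerase genes it was 6 (10 min from culture A left out) to 15 with any 1 array left out and 0 with the red channel alone, with 0 lower in each, and for the ribosomal protein genes 4 (30 min from A left out) to 12 higher with any 1 array left out and 0 with the red channel alone.

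By the rule for named genes, 0 rises reached 2-fold, so the 15 rises with the lowest adjusted p stood in: TOD6, SYO1, DUG3, DPH1, TCA17, ADO1, EGT2, CSL4, CDC123, KIN4, MET14, HPM1, DRN1, LCL2 and PEX15. Their changes ranged from 0.11 for PEX15 to 0.66 for TOD6, each with an adjusted p of 0.00682. Late and early arrays did not overlap in any of them, which the choice by lowest adjusted p favours. TOD6, which encodes a repressor of ribosome biogenesis genes, stood at -0.13 and 0.07 (A) and -0.09 and 0.04 (B) at 20 and 30 min, against -0.74 and -0.67 (A) and -0.64 and -0.69 (B) at 5 and 10 min. It was far below the reference strain on all early arrays and close to it on all late arrays, and the change was 0.66 ± 0.05 (SE, adjusted p 0.00682). SYO1, which encodes an import adaptor for ribosomal proteins, stood at -0.17 and -0.01 (A) and -0.14 and -0.03 (B) at 20 and 30 min, against -0.57 and -0.64 (A) and -0.57 and -0.58 (B) at 5 and 10 min, with a change of 0.50 ± 0.04 (SE, adjusted p 0.00682). HPM1 (a methyltransferase that acts on a ribosomal protein), DPH1 (diphthamide synthesis on the translation factor eEF2), CDC123 (assembly of the translation factor eIF2) and CSL4 (RNA exosome) were at 0.21, 0.36, 0.25 and 0.25.

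The largest rises were in other genes, named here after their values were seen, except RNR2, which the list of cyclins and DNA replication genes gave. YOR343C stood at 1.26 and 1.60 (A) and 1.08 and 1.40 (B) at 20 and 30 min, against 0.15 and 0.57 (A) and 0.26 and 0.65 (B) at 5 and 10 min. The change was 0.93 ± 0.16 (SE, adjusted p 0.017), above 1 in culture A (1.07) and below it in culture B (0.78). RNR2, which encodes a small subunit of ribonucleotide reductase, stood at 0.97 and 1.39 (A) and 0.92 and 1.19 (B) at 20 and 30 min, against 0.13 and 0.36 (A) and 0.22 and 0.49 (B) at 5 and 10 min. The late arrays were all above the early ones, and the change was 0.82 ± 0.14 (SE, adjusted p 0.0152). LIA1, the deoxyhypusine hydroxylase gene, was between 0.78 and 1.11 on the late arrays against 0.08 and 0.16 on the early ones, with a change of 0.81 ± 0.07 (SE, adjusted p 0.00715). AMF1, an ammonium transporter gene, was between 0.54 and 1.00 on the late arrays against -0.09 and 0.17 on the early ones, with a change of 0.71 ± 0.13 (SE, adjusted p 0.0181); with a floor of 200 it was listed at 0. All 4 genes were also above 0 min in the mean of 45 and 90 min, by 1.59, 1.65, 0.94 and 1.79 in that order. Of the 37 genes of the cyclin and replication list 11 were higher and 0 lower, with a median of 0.12. Of all genes tested 11.3% were higher and 11.1% lower. Among the 11 were CDC6, an origin licensing factor, at 0.45, POL12, a subunit of DNA polymerase alpha, at 0.26, and CDC9, DNA ligase, at 0.25. With any 1 array left out 5 (5 or 10 min from culture A) to 13 were higher, and with the red channel alone 2.

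**Figure D5:**
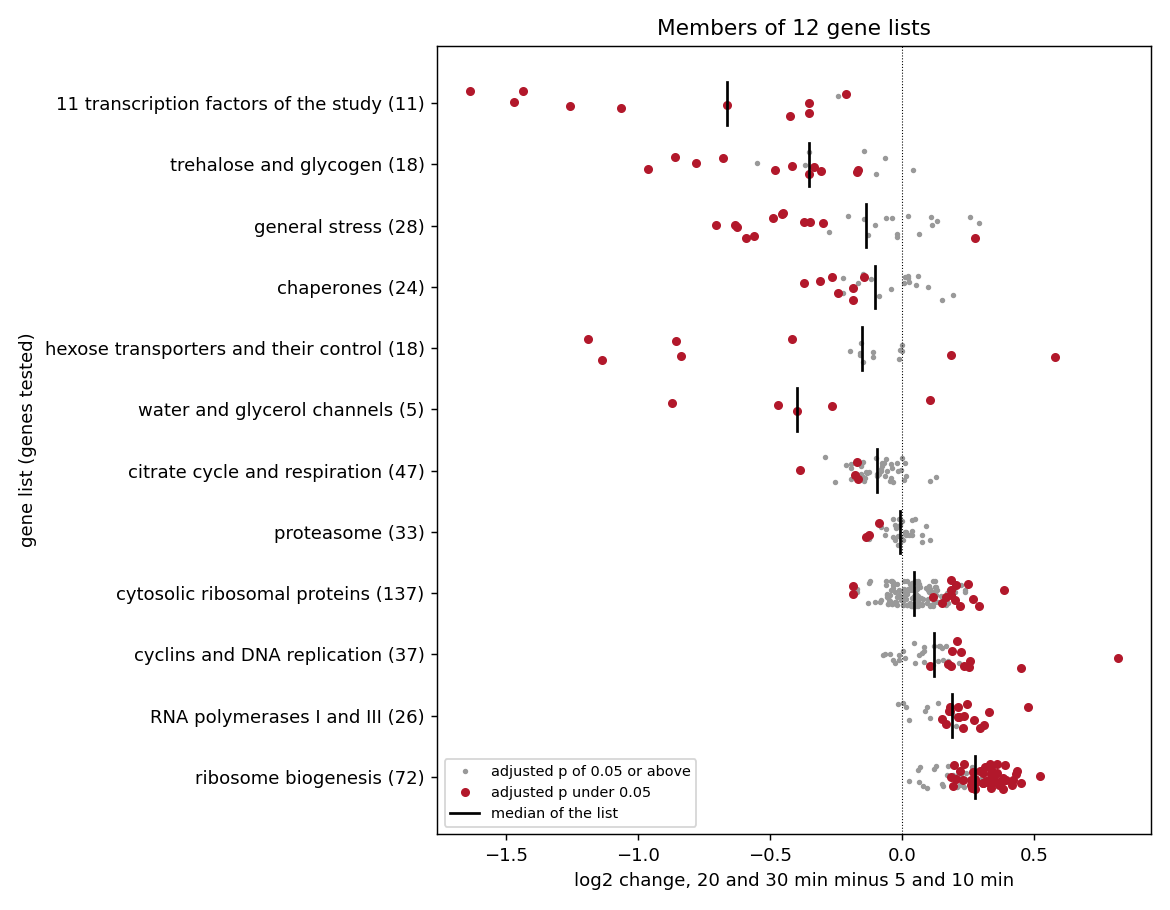
Change on the log2 scale (x axis, 20 and 30 min minus 5 and 10 min) of every measured member of 12 gene lists (rows, number of genes tested in brackets); red points passed an adjusted p of 0.05, grey points did not, and black bars are list medians. The medians run between -0.66 for the 11 transcription factors of the study and 0.28 for ribosome biogenesis, where every point lies right of 0.

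Among transport and regulator lists the members split, and their counts read against 11.1% lower and 11.3% higher of all genes tested. Of 5 water and glycerol channel genes 4 were lower and 1 higher, with a median of -0.40. AQY1, a water channel gene, stood at 0.08 and -0.19 (A) and 0.34 and -0.06 (B) at 20 and 30 min, against 0.88 and 0.81 (A) and 1.01 and 0.95 (B) at 5 and 10 min. The groups did not overlap, and the change was -0.87 ± 0.10 (SE, adjusted p 0.00918), while AQY2 was at -0.47, its neighbour YLL053C at -0.40 and AQY3 at -0.27. AQY2 and YLL053C are adjacent and may not be told apart by their probes. The 4 lower channel genes came to 1 when the array of 5 min from culture A was left out and to 2 for 10 min from A, 30 min from A or 5 min from B, with 0 higher in each. The study found water transport and siderophore transport among the genes lowered on these arrays, so these lists are no independent evidence either. Of 24 iron regulon genes 4 were lower and 4 higher, with a median of 0.03: the siderophore transporter genes ENB1 and ARN1 were at -0.40 and -0.26, and FRE1, a ferric reductase gene, and FTR1, the iron permease gene, at 0.32 and 0.33. With 5 min from culture A left out 2 iron genes were lower and 3 higher, and with the red channel alone 1 and 0. Of 24 sulfate and methionine genes 2 were lower and 5 higher, or 0 and 3 with that array left out. SUL1, the sulfate permease gene, stood at -2.81 and -3.23 (A) and -3.02 and -3.56 (B) at 20 and 30 min, against -2.12 and -2.33 (A) and -2.32 and -2.58 (B) at 5 and 10 min. It was far below the reference strain in both groups and lower still on the late arrays, and the change was -0.82 ± 0.16 (SE, adjusted p 0.021), whereas MUP1, the methionine permease gene, and MET1 were at 0.35 and 0.27.

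The counts of the next lists also read against 11.1% lower and 11.3% higher of all genes tested. Of 16 genes of the Cyc8-Tup1 corepressor and its partner factors 7 were lower and 1 higher, with a median of -0.17. With the red channel alone 4 of these were lower and 0 higher. Of 14 filamentation regulators 4 were lower and 2 higher, with a median of -0.03. Besides MIT1, SFG1 and PHD1, the filamentation genes that passed included MGA1 at -0.65 ± 0.13 (adjusted p 0.0207) and ASH1 at 0.22 ± 0.04 (adjusted p 0.0235); with a floor of 200 MGA1 was listed at 0. Of 13 daughter cell separation genes 2 were lower and 3 higher: the glucanase gene DSE4 was at -0.69, and EGT2, ASH1 and SCW11 at 0.28, 0.22 and 0.21. Of 19 phosphate regulon genes 6 were lower and 5 higher, with a median of 0.00. PHO12, an acid phosphatase gene nearly identical to PHO11, was at -0.79 and PHO5, the main acid phosphatase gene, at -0.31, while GIT1, a glycerophosphoinositol transporter gene, was at 0.36. Of 25 ergosterol genes 7 were higher and 2 lower; ERG28 was at -0.71 and ERG3 and ERG11 at 0.45 and 0.26. The last 2 lists rested on single arrays: with 5 min from culture A left out 1 phosphate gene was lower and 2 higher, and 3 ergosterol genes were higher and 0 lower; with 10 min from A left out 2 phosphate genes were lower and 3 higher, and 2 ergosterol genes were higher and 0 lower. With 30 min from A or 5 min from B left out 2 phosphate genes were lower, and 3 ergosterol genes higher and 0 lower. With the red channel alone 2 phosphate genes were lower and 0 higher, and 1 ergosterol gene lower and 0 higher.

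The remaining lists had medians near that of all genes, and their counts read against 11.1% lower and 11.3% higher of all genes tested. Of 56 amino acid biosynthesis genes 10 were lower and 4 higher (median -0.02), of 75 mitochondrial ribosomal protein genes 10 were lower and 3 higher (-0.03), and of 33 proteasome genes 3 were lower and 0 higher (-0.01). Lower genes came to 2, 2 and 0 in these lists when the array of 5 min from culture A was left out, and to 0 in each with the red channel alone. Of 25 mating genes 3 were lower and 1 higher (0.06), with STE4, the G protein beta subunit gene, at -0.41 and FAR1, a cell cycle inhibitor of the pheromone response, at 0.30. Of 22 amino acid and peptide permease genes 2 were lower and 2 higher (0.01), of 17 measured cell wall integrity genes 1 was lower and 3 higher (0.06), of 17 glycolysis genes 0 were lower and 2 higher (0.06), and of 10 histone genes 2 were lower and 0 higher (-0.06).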

How the data were processed

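RNA of 16 samples was measured on 16 Agilent two-colour arrays, sample in Cy5 and the reference strain DBY12001 in Cy3, with no dye swap. Per the file headers, the processed intensities of each colour had their background subtracted and their dyes normalized array by array in Agilent Feature Extraction. The authors floored them at 50 and deposited log2 ratios of red over green, which equalled the ratios recomputed from the deposited intensities at every spot. The deposited outlier and background marks were used as filters. The gene annotation of the array design is older than the RefSeq names used, which matched 5720 of 6225 genes.

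Spots marked as outliers (3 to 34 on the 8 arrays) were left out and the spots of a probe averaged. Of several probes of a gene (29 genes) the brightest in red was used. Genes with red well above background on fewer than 2 of the 8 arrays were left out, and 6076 were tested. Where both colours lie under the floor a ratio is 0 by construction, and 434 tested genes had red at the floor on more than 6 of the 8 arrays. The number of arrays limits the precision.

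Late (20 and 30 min) minus early (5 and 10 min) was fitted with limma 3.58.1 in R 4.3.3 (lmFit, eBayes) with the culture as a block, as sample letters A and B in the labels name the same culture at all times; 5 residual and 0.78 prior degrees of freedom remained. Adjusted p-values are Benjamini-Hochberg over all genes tested. On simulated data with 200 changed genes the script was checked beforehand. The 0, 45 and 90 min arrays were fitted separately. Genes were called at an adjusted p under 0.05, and by 2-fold where stated. Named genes were ROF1, URA3, the 11 transcription factors, the 15 largest called falls and rises (by lowest adjusted p where fewer were called) and up to 4 members of each list. The members, the 26 gene lists and the tests were chosen with earlier results of these data known. Alternatives were the background correction, the floor, filters, centring, the red channel alone, other models and leaving out arrays. A count of motifs in promoters was planned and is not reported here, as no promoter sequences were used here.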

Additional observations from a re-analysis of the deposited data

Results flagged for a closer look

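Among the named genes, 10 of 270 groups of 4 arrays held 1 array apart from the other 3 by Dixon's test at its 95% critical value, which chance passes in about 1 of 20 groups; over all genes tested 6.01% of groups did. On the late arrays these were CDC123 at 30 min in culture B (0.23), HPM1 at 30 min in A (-0.0465), PEX15 at 20 min in B (0.15), RPA12 at 30 min in B (0.17), RPL7B at 20 min in A (-0.46) and QCR9 at 30 min in A (0.16). On the early arrays they were SYO1 at 10 min in A (-0.64), RPS27A at 10 min in A (-0.44), SOL4 at 10 min in B (0.87) and CRH1 at 10 min in B (0.15). The other 3 late arrays of RPL7B lay between -0.21 and -0.17, and the other 3 early arrays of SOL4 between 1.01 and 1.02. The spread was small in most of these groups, so the distances are small in size too.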

How the results depend on the processing

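The count of 15 genes lower by 2-fold was 15 without the replicate block, with time as a factor, with the prior variance following intensity, under either filter on dim probes, with median centring, with outlier spots kept and with the genes above the floor only (chosen after seeing the data). It was 11 with normexp and loess, 17 with no floor, 12 with a floor of 200 and 16 with the red channel alone, which also called 1 gene higher. With no minimum change it was 677 lower and 689 higher, and with 1.5-fold 47 and 7. Without the replicate block 752 genes were lower and 746 higher. The red channel alone gave 118 lower and 58 higher, and time as a factor over 16 arrays 1074 and 1150. Leaving out 1 array or 1 culture gave 0 to 20 genes lower and 0 to 1 higher by 2-fold, and 0 to 592 lower and 0 to 598 higher without a minimum; each 0 of the latter came from 1 culture alone. For 20 against 10 min, 30 against 5 min and 15 against 5 and 10 min, all counts were 0 in both directions, with 1, 1 and 3 residual degrees of freedom. At 15 against 5 and 10 min, which lie in the same slide column, all 15 genes were negative, between -0.89 and -0.35, and 0 passed. The 15 were chosen on the same 5 and 10 min arrays, which favours negative values, so these signs are no independent evidence.

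Signs turned at 15 against 5 and 10 min for SDH2 (0.0141), PHO5 (0.064), LYS20 (0.0059), MRPL24 (1.59e-05), MRP35 (0.0166), IMG2 (0.0282), KAR3 (0.0946), HHT1 (0.00065), QCR9 (0.0202), ATP15 (0.079), GSC2 (0.0124), RPN3 (0.0065), PRE7 (0.0104) and TAT2 (-0.0483), and for the median of the general stress list (0.034). With the red channel alone FBA1 (-0.0309) and ADO1 (-0.15) turned. The cause was not tested in any of these. Of 135 named genes, 69 were no longer past the threshold with the red channel alone and 17 with a floor of 200.

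Only 2 cultures, serial samples of each, 1 slide column per phase and dim genes near the floor limit these results.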

Other observations

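Several falls just short of 2-fold, named after their values were seen, lay later well below 0 min. SKM1, a PAK-family kinase gene, changed by -0.96, REE1, a gene linked to the control of enolase expression, by -0.95, and ZPS1, a gene for a cell surface protein, by -0.94. In the mean of 45 and 90 min against 0 min they were at -1.22, -2.27 and -1.61. TMA10, with a similar change of -0.87, was at -0.36 there.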
